A study of Mus musculus with 2 samples.

Results

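The genes described here encode the nuclear part of respiratory complex I, with the factors that build it. They were taken as every gene whose name on the array begins with Nduf, which gave 45 of 37074 gene names. By role they were 7 core subunits, 29 accessory subunits, 7 assembly factors of the Ndufaf series and 2 genes that share the name without being counted as subunits here, Ndufa4 and Ndufa4l2. The members were represented by 70 probes, of which 64 were well above background on both arrays, and all 45 members had at least 1 such probe.

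RNA came from unfertilised oocytes of C57BL/6 mice, wild type (MUL1 +/+) or knockout (MUL1 -/-) for Mul1, whose product is a ubiquitin ligase anchored in the outer mitochondrial membrane. The wild-type pool held 213 oocytes and the knockout pool 123, and each pool was hybridised to 1 single-colour Agilent array on a shared slide. The age and number of the animals and the deleted part of Mul1 are not given in the sources used here. The title of the series speaks of raised reactive oxygen species without Mul1, and complex I is a known source of superoxide.

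Complex I, NADH:ubiquinone oxidoreductase, is the entry point of the mitochondrial respiratory chain. Its peripheral arm holds the N module, which oxidises NADH at a flavin, and the Q module, which passes the electrons over iron-sulfur clusters to ubiquinone. Its membrane arm pumps protons and contains the subunits encoded by mitochondrial DNA. The core subunits carry the flavin, the iron-sulfur clusters and the quinone site, the accessory subunits surround and stabilise them, and the assembly factors help to build the enzyme and are absent from the finished form. Oocytes depend largely on mitochondrial oxidative phosphorylation for ATP.

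The differences reported here are small and some members' probes disagree, so the sequences of the probes to which the results refer most are shown first. Each is the 60-base array probe in lower case, 5′ to 3′, with its position on mouse build mm9 as the file gives it.
The Ndufv1 probe shown, for NM_133666, lies at chr19:4008693-4008752 on the minus strand.
Ndufv1: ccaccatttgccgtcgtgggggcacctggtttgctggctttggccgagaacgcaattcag
The Ndufaf4 probe, for NM_026742, lies at chr4:24830285-24830344 on the plus strand and belongs to the lowest member.
Ndufaf4: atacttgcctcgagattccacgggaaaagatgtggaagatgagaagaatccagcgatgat
For Ndufaf5 both probes for NM_027093 are shown because they gave different values, the first at chr2:140014595-140019324 and the second at chr2:139996598-139996657, both on the plus strand.
Ndufaf5, first probe: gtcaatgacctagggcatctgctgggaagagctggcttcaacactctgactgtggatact
Ndufaf5, second probe: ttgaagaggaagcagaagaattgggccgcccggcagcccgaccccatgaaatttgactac
For Ndufa3 a probe for the RefSeq mRNA NM_025348, at chr7:3571032-3571091, is set beside the first 30 bases of the probe for the Ensembl transcript ENSMUST00000150497, at chr7:3569447-3569506, both on the plus strand, because they disagreed most among all members.
Ndufa3, NM_025348: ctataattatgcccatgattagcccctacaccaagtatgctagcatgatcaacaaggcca
Ndufa3, ENSMUST00000150497, first 30 bases: cagtttgactctgtaggcagaactcctcgg
Each printed whole holds at least 1 reading frame without a stop codon. No exon annotation of mm9 was used here, so whether a probe lies in coding or untranslated sequence is not stated.

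The arrays gave 22921 genes with a probe well above background on both. Differences are log2 values, knockout minus wild type, with the 75th percentile of each array subtracted, and a gene's value is the mean over its probes well above background on both arrays. Probes well above background made up 66.0% (wild type) and 64.5% (knockout) of all. At its NM_026689 probe Mul1 itself read 3353 in wild type and 1074 in knockout, a difference of -1.61, whereas its other probe, near background, read 19.3 and 23.1. Whether either Mul1 probe lies in the deleted part is unknown. Of 12 oocyte markers, 12 (wild type) and 11 (knockout, without Figla) passed the background threshold, with a summed signal before scaling of 133900 and 125000. After scaling, 7 of 11 were above 0, with a median of 0.16, from Dppa3 at -0.21 to Ooep at 0.94. Cumulus and granulosa markers were present in both pools, 12 of 12, with sums of 237300 and 231400. Single ones differed, with 6 of 12 above 0 and a range from Amh at -0.81 to Has2 at 1.16. Markers of other cells differed between the pools. Of the myeloid markers, 12 of 12 were at least 1.5-fold higher on the knockout array (summed signal 32190 and 80820), against 7.84% of all genes. Of the red cell markers, 6 of 6 were at least 2-fold lower (77260 and 24530), against 313 of 22921 genes. With normexp background correction the smallest differences were 0.43 (myeloid) and -0.74 (red cell), short of these folds. They also fell short at 0.52 (myeloid) with the stricter filter on dim probes and at -0.89 (red cell) on the spike-in scaling. With the brightest probe of each gene 11 of 12 myeloid markers were above 0. Probes ran from -0.41 to 1.45 for Ptprc and from 0.02 to 1.19 for Csf1r, the lowest at 0.60. Oviduct epithelium markers summed to 77570 and 119300, of which Ovgp1 alone read 24270 and 69100. Of these markers 4 of 6 were above 0, from Upk1b at -0.29 to Ovgp1 at 1.54, and the bright Krt18 read 27080 and 24030 (-0.14). Each marker of these lists other than Figla was well above background on both arrays, and their part in the values below was not tested. With 1 array per genotype no test was possible, and every difference compares these RNA pools without a replicate check.

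Transcripts of nuclear complex I genes read nearly alike on both arrays. The median difference over the 45 members was 0.06 against 0.03 over all genes measured, and the SD between genes was 0.17 among the members and 0.44 over all genes. Of the members, 33 were above 0 and 12 below, so 73.3% were higher on the knockout array, against 54.8% of all genes. None was at least 1.5-fold apart, where 13.0% of all genes were, with 1796 higher (7.84%) and 1190 lower (5.19%), and 4.29% of all genes were at least 2-fold apart. Among the 15184 genes with a RefSeq mRNA probe, as every member has, 56.5% were above 0 and 11.2% at least 1.5-fold apart. In a pool, fewer cells of a type and less RNA per cell cannot be told apart. Most members were bright, with 34 of 45 in the brightest of 5 equal signal classes of genes, where 56.2% of genes were above 0 and 3.38% at least 1.5-fold apart. Scaling on the spike-in controls, in place of the 75th percentile, added 0.14 to every difference, which put the median of all genes at 0.17, raised the members above 0 to 39 and split the genes at least 1.5-fold apart into 2670 higher and 753 lower. Without a filter on dim probes the members' median, at 0.06, lay below that of all genes, at 0.11.

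**Figure D1:**
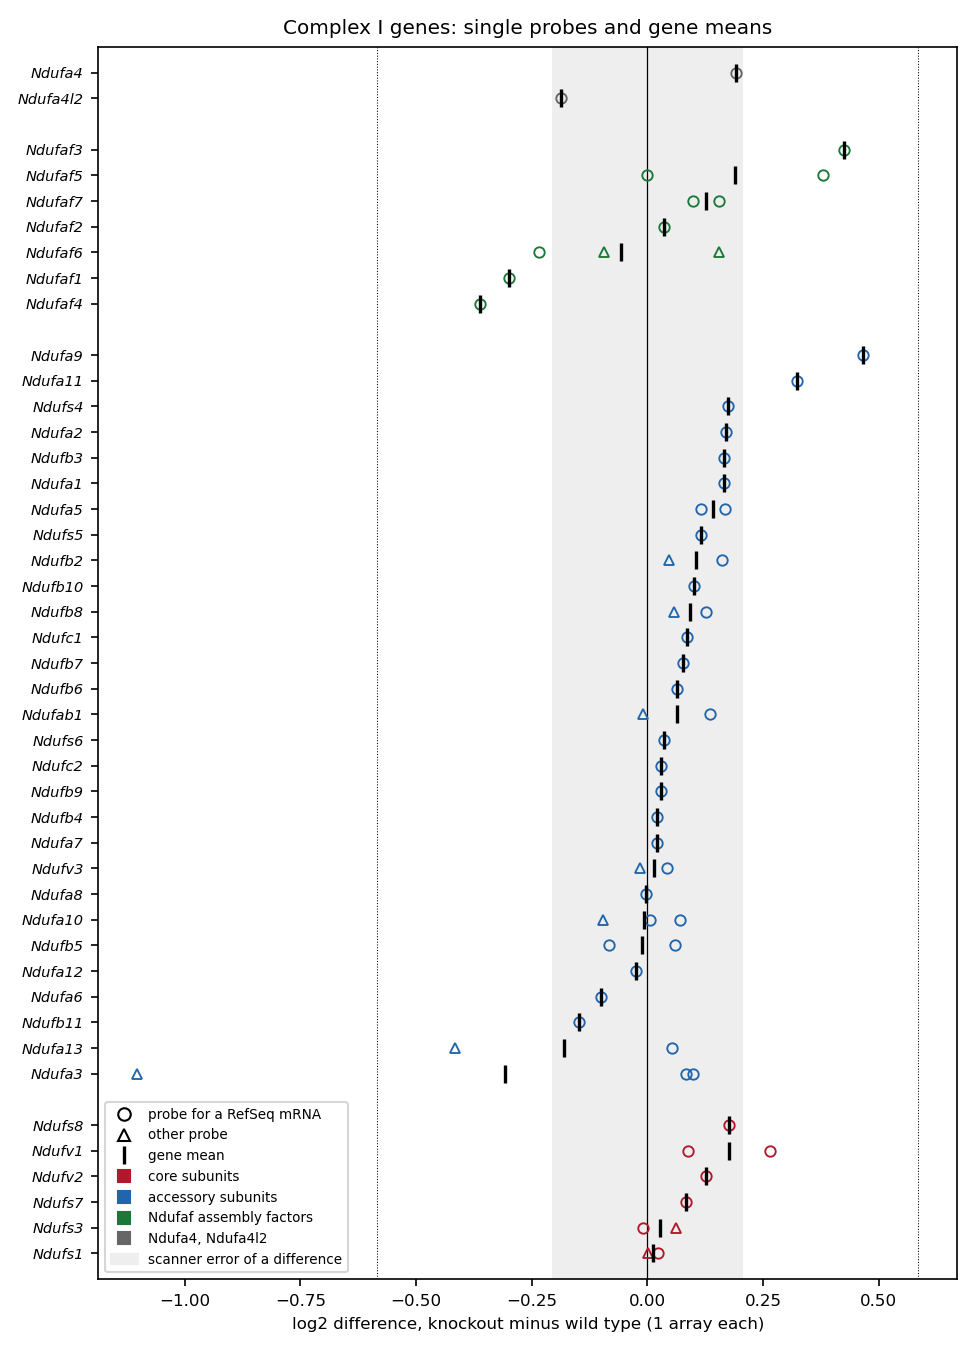
Log2 difference between the knockout and the wild-type array (horizontal axis, 1 array each) for the probes used and the gene means of the members named on the vertical axis. Circles are probes for RefSeq mRNAs, triangles other probes, black ticks gene means, the grey band the scanner error of a difference (0.20), and dotted lines a 1.5-fold difference. No gene mean reaches a dotted line, and the 1 probe beyond them is the Ensembl transcript probe of Ndufa3 at -1.10.

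The error that the scanner software assigns to a signal was 10% on each array for bright probes, or 0.20 on the log2 scale for a difference. For a gene with several probes the error was the mean of its probes' errors, not lowered for averaging. Differences larger than this error were found for 7 members, against 43.2% of all genes and 23.9% of genes in the brightest signal class. Ndufa9, Ndufaf3 and Ndufa11 were among the 4 that read higher in the knockout pool. Ndufaf4, Ndufa3 and Ndufaf1 were the 3 that read lower. For Ndufa3 this came from its Ensembl transcript probe (-1.10) alone, and its RefSeq probes averaged 0.09. For comparison, 286 probes printed at several spots had a median SD of the difference between spots of 0.04, and different probes of 1 gene had a median SD of 0.15 over 8023 genes and of 0.08 over the members. Neither measure holds the spread between animals or pools.

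All 7 core subunits had differences above 0, with a median of 0.13 and the lowest at 0.01. That count was 5 under quantile normalisation and with the authors' values, since Ndufs1 and Ndufs3 lay near 0 and changed side. Their spread was narrow, with an SD between genes of 0.09. Ndufv1, which binds NADH and the flavin, read 5393 (wild type) and 6334 (knockout) at the probe printed above, a difference of 0.26. Its other probe read 21960 and 22810, a difference of 0.09, so the gene mean was 0.18. Ndufv2, which carries an iron-sulfur cluster next to the flavin, read 16030 and 17120, a difference of 0.13. Ndufs1, the large iron-sulfur subunit of the N module, was level between the arrays. Its RefSeq probe read 12300 and 12210 (0.02), and its other probe, for ENSMUST00000186569, read 76.1 and 74.4 (0.0006).

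The core subunits of the Q module described here lay within the scanner error. Ndufs7, which holds the iron-sulfur cluster nearest to ubiquinone, read 28730 and 29780 (0.08). Ndufs8, which holds iron-sulfur clusters of the same arm, read 14890 and 16450 (0.18). Ndufs3, a scaffold of the Q module, read 24790 and 24080 at its RefSeq probe, a difference of -0.0091 after scaling. Its second probe was close to background, at 23.6 and 24.1, and brought the mean to 0.03.

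The 29 accessory subunits had a median of 0.06, with 21 above 0 and a range from -0.31 to 0.47. Their SD between genes was 0.14, or 0.23 without a filter on dim probes. The gap of their median from that of the core subunits was smaller than the scanner error of 1 probe, which does not measure the error of a median. Ndufa9, an accessory subunit of the Q module that binds a nucleotide and sits near the membrane arm, was the highest of all members. It read 4299 in wild type and 5807 in knockout, a difference of 0.47 or 1.38-fold. Ndufa9 remained the highest member under each of 13 alternative settings, from 0.44 to 0.61. Ndufa11, a membrane arm subunit that contacts complex III in supercomplexes, read 2956 and 3619, a difference of 0.32 or 1.25-fold. Each of these genes had 1 probe, so no second probe on the array bears on their values.

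**Figure D2:**
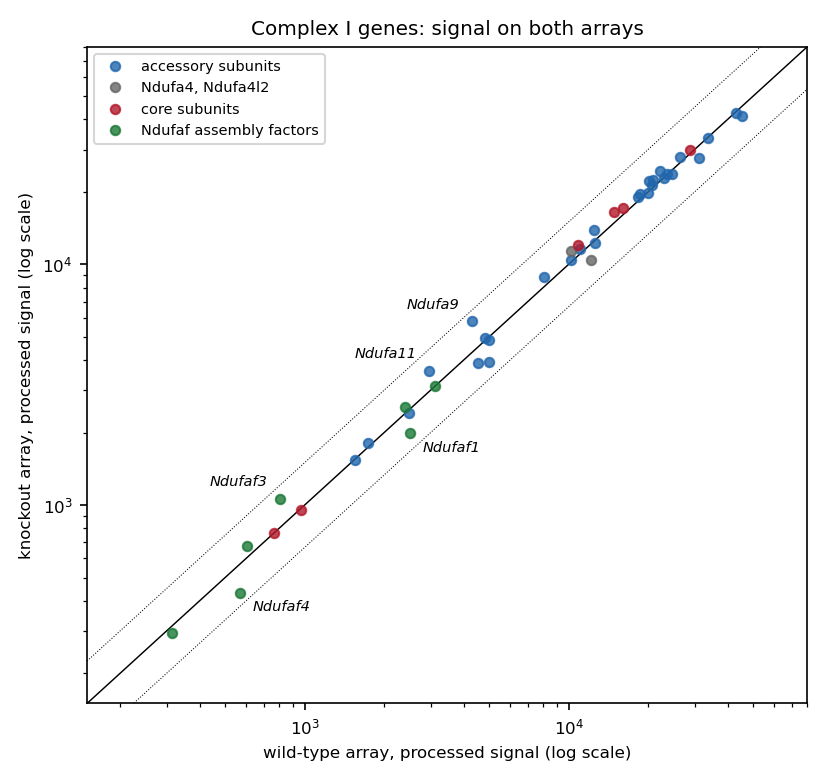
Processed signal of members on the wild-type (horizontal) and the knockout array (vertical), both on log scales, each point the geometric mean over the probes used for a gene. The solid line marks equal signal and the dotted lines a 1.5-fold difference. All points lie between the dotted lines, with Ndufa9 at 4299 and 5807 nearest the upper one.

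By module, 13 of the 14 genes listed here for the N and Q modules of the peripheral arm were above 0, against 54.8% of all genes. These lists leave out Ndufa6, Ndufa7 and Ndufab1, which are described below. In the Q module all 6 were above 0, with a median of 0.16, from Ndufs3 at 0.03 to Ndufa9 at 0.47. In the N module 7 of 8 were above 0, with a median of 0.08, from Ndufa12 at -0.03 to Ndufv1 at 0.18. With quantile normalisation these counts were 5 of 6 and 6 of 8. With RefSeq probes alone Ndufs3 lay below 0, at -0.0091, and 5 of 6 Q module genes were above 0. Ndufa12, the subunit for which Ndufaf2 holds the place during assembly, read 24640 and 23670. Ndufs4, an N module subunit whose loss causes Leigh-like disease in mice, read 12530 and 13830, a difference of 0.17. Of the other N module accessory genes, Ndufa2 read 22290 and 24510 (0.17), and Ndufs6, a zinc-binding subunit, read 23670 and 23710 (0.04). The 3 highest gene values of the N module, for Ndufv1, Ndufs4 and Ndufa2, were all below the scanner error as taken here. The Ndufv1 probe printed above, at 0.26, was by itself above it.

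The membrane arm is described by lists of nuclear genes for its proximal and distal parts, without the mitochondrially encoded subunits. In the proximal part 5 of 9 genes were above 0, with a median of 0.03 that ranged from -0.0021 to 0.17 over the settings, and the values ran from Ndufa3 at -0.31 to Ndufa11 at 0.32. For the distal part, where all genes measured from the list were Ndufb genes, 8 of 10 were above 0, with a median of 0.07. The order of the 2 parts depended on the probes. With RefSeq probes alone 8 of 9 proximal genes were above 0, with a median of 0.09, against 0.07 in the distal part. With the brightest probe of each gene the medians were 0.08 and 0.06. Ndufb3, the highest of the distal part, read 8054 and 8837 (0.17). Ndufb11, the lowest, is an X-linked subunit and read 31320 and 27650, a difference of -0.15. It was below 0 in every setting, at -0.0049 on the spike-in scaling, and its size was within the scanner error. By gene family, 8 of 8 Ndufs and 3 of 3 Ndufv genes were above 0, 8 of 10 Ndufb and 6 of 12 Ndufa genes, against 54.8% of all genes. With quantile normalisation Ndufs1 and Ndufs3 lay below 0. Over their RefSeq probes alone Ndufa3 (0.09), Ndufa13 (0.05) and Ndufa10 (0.04), here counted below 0, lay above it.

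**Figure D3:**
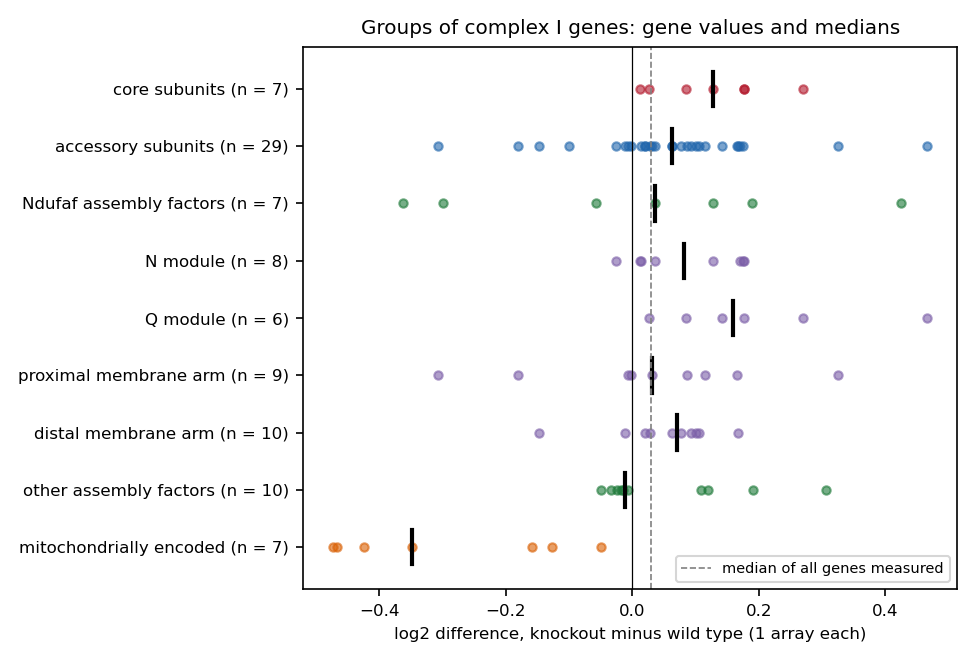
Log2 difference of each gene (points) and group medians (black ticks) for the 3 roles, the 4 modules, the assembly factors without an Nduf name and the mitochondrially encoded subunits, with the median of all genes (0.03) as a dashed line. The core subunits lie at 0.01 and above, the Ndufaf factors spread from -0.36 to 0.42, and the mitochondrially encoded subunits all lie below 0.

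Of the subunits in no module list, Ndufa6, which binds the acyl carrier protein, read 45340 and 41340, a difference of -0.10. Ndufab1, that acyl carrier protein, had a probe at 982 and 1055 (0.14) and another at 23760 and 23070 (-0.0095), with a mean of 0.06. Ndufa7 read 43080 and 42710 (0.02). None of these 3 exceeded the scanner error, and the sign of Ndufa6 and of Ndufab1 depended on the setting.

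For 3 accessory genes, Ndufa3, Ndufa13 and Ndufa10, the gene mean was below 0 and the mean over RefSeq probes above 0. The Ndufa3 probe for ENSMUST00000150497 read 226.2 in wild type and 103.0 in knockout, a difference of -1.10. Its probe for NM_025348 printed above, 1585 bases away, read 16790 and 17560 (0.10), and the other RefSeq probe read 32530 and 33690 (0.08). Ndufa3 was thus 0.09 over its RefSeq probes alone and -0.31 over all 3, and it was the single member of the 16 with several probes whose probes lay at least 0.5 apart, against 25.0% of 8023 such genes. Ndufa13, also known as Grim19, showed a similar split. Its RefSeq probe read 46310 and 46990 (0.05), and a probe for ENSMUST00000152456 read 441.5 and 323.7 (-0.42). The array's own description of that second probe names Yjefn3, a neighbouring gene, and its start lies 6408 bases from the RefSeq probe. The mean of -0.18 for Ndufa13 therefore joins probes that the file describes as different genes. Ndufa10, a subunit of the proximal membrane arm, had a smaller split, at -0.0067 over its 3 probes and 0.04 over its 2 RefSeq probes.

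The 7 Ndufaf assembly factors spread most, with an SD of 0.28 against 0.09 for core and 0.14 for accessory subunits, and 0.27, 0.10 and 0.23 without a filter on dim probes. Their median was 0.04, with 4 above 0, and it turned to -0.06 without a filter on dim probes and to -0.0009 with the brightest probe of each gene. These factors were also dimmer than the subunits, with 1 in the brightest signal class, 3 in the next and 3 in the middle class, and the part of signal level in their wider spread was not tested. Over all genes in these classes the SD was 0.26, 0.34 and 0.43.

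Ndufaf3 and Ndufaf4, which act together in building the Q module, lay at opposite ends. Ndufaf3 read 808.8 in wild type and 1061 in knockout, a difference of 0.42 or 1.34-fold. Ndufaf4, at the probe printed above, read 569.2 and 432.9, a difference of -0.36 or 1.29-fold lower. Each exceeded the scanner error, each rests on 1 probe, and each kept its side in all settings, Ndufaf3 from 0.39 to 0.57 and Ndufaf4 from -0.37 to -0.22. Ndufaf1, which belongs to the complex that assembles the proximal membrane arm, read 2501 and 1986, a difference of -0.30, and ranged from -0.31 to -0.16 over the settings. Ndufaf2, a paralogue of Ndufa12 that acts late in assembly, was level, at 3111 and 3119 (0.04).

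Ndufaf5 hydroxylates an arginine of Ndufs7, and its probes disagreed. The first Ndufaf5 probe printed above read 1117 and 1091 (-0.0009), and the second, 17997 bases upstream, read 327.2 and 416.2 (0.38). Their mean of 0.19 thus describes neither probe, and a dim probe for ENSMUST00000125913 added without a filter turned it to -0.15. Ndufaf6, a factor needed for biogenesis of the mitochondrially encoded ND1 subunit, read 1190 and 988.3 (-0.23) at its RefSeq probe, 637.9 and 584.6 (-0.09) at the next and 41.0 and 44.6 (0.15) at the dimmest. The Ndufaf6 probes fell on both sides of 0, and their mean was -0.06. Ndufaf7, a mitochondrial arginine methyltransferase, was higher at both of its probes. It read 3920 and 4105 (0.10) at one and 1470 and 1601 (0.16) at the other, with a mean of 0.13. These differences lay within the scanner error.

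The 2 remaining names are described by their signals. Ndufa4, now counted to complex IV, read 10230 and 11410, a difference of 0.19. Ndufa4l2, a related gene known as a target of hypoxia-inducible factor, read 12150 and 10430, a difference of -0.19. Its second probe, for CF583954, was not well above background on either array, and including it without a filter turned the gene's difference to 0.46.

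Of the 64 probes used, the 52 for RefSeq mRNAs had a median of 0.08 with 41 above 0, between -0.36 and 0.47. The 12 others had a median of -0.0045 with 6 above 0, the lowest at -1.10. Restricting every gene to RefSeq probes, an alternative chosen after seeing the data, put 35 of 45 members above 0, against 57.8% of genes. The probes for RefSeq mRNAs had a median GC content of 45.0% against 43.3% over all 29638 probes of this kind. The letters AATAAA, the common polyadenylation hexamer, stood in 11 of these 52 probes (21.2%) against 10.6% of all probes for RefSeq mRNAs, and their reverse complement TTTATT in 1 against 3.83%. Such a match describes the probe and is not a mapped site. A reading frame without a stop codon was present in 42 of the 52 (80.8%) against 82.8% of all. The 7 probes that span more than 60 bases of the genome, as exon junction probes do, ranged from -0.09 to 0.42 with a median of 0.06. The 2 probes of Ndufa5, a Q module subunit, overlap by 35 bases and are not independent, reading 20900 and 22950 (0.17) and 20680 and 21920 (0.12).

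Of the 6 member probes not used, 5 were not well above background on either array. The sixth, for AK037635 of Ndufs5, a subunit of the proximal membrane arm, read 18.6 in wild type and 4.88 in knockout, where it was not well above background. Taking the lowest signal well above background as the floor, it read at least 1.15-fold higher on the wild-type array. That bound leaves out the scanner error of the wild-type signal, 4.05 on 18.6. The RefSeq probe of Ndufs5 read 26390 and 27950, a difference of 0.12. Another probe, listed only by its transcript ENSMUST00000106206 and described in the file as Ndufs5, read 1745 and 1905 (0.16). Ndufaf8 was on the array under the older name 1810043H04Rik, outside the rule for members, and read 1354 and 1403 (0.08).

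The other genes of the assembly pathway that lack an Nduf name were compared from a list of 13, of which 10 were measured. Their median was -0.01, with 4 above 0, none at least 1.5-fold apart and a range from -0.05 for Tmem70 to 0.31 for Tmem126b, a partner of Ndufaf1 in membrane arm assembly. That median was 0.02 with normexp background correction, and 0.13 with all 10 above 0 on the spike-in scaling. The 7 complex I subunits encoded by mitochondrial DNA were all below 0, with a median of -0.35, from ND4L at -0.47 (47680 and 33580) to ND3 at -0.05 (28270 and 26710). On the spike-in scaling their median was -0.21, with 5 below 0 and 2 above. The ND3 probe is placed on chromosome 1 in the file, not on the mitochondrial genome. The nuclear subunits, 28 of 36 above 0, and the mitochondrially encoded ones thus lay mostly on opposite sides of 0, a difference that was not tested.

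Group medians kept their order of core, accessory and Ndufaf genes in each of the settings drawn. The core median ran from 0.09 to 0.27, the accessory median from 0.05 to 0.21 and the Ndufaf median from -0.06 to 0.18, with the upper ends all from the spike-in scaling. The medians of the 3 groups lay closer together than the scanner error of a difference (0.20), except without a filter on dim probes. Of the 45 members, 31 kept their sign in every setting, 28 above 0 and 3 below, and the 3 were Ndufaf4, Ndufaf1 and Ndufb11.

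**Figure D4:**
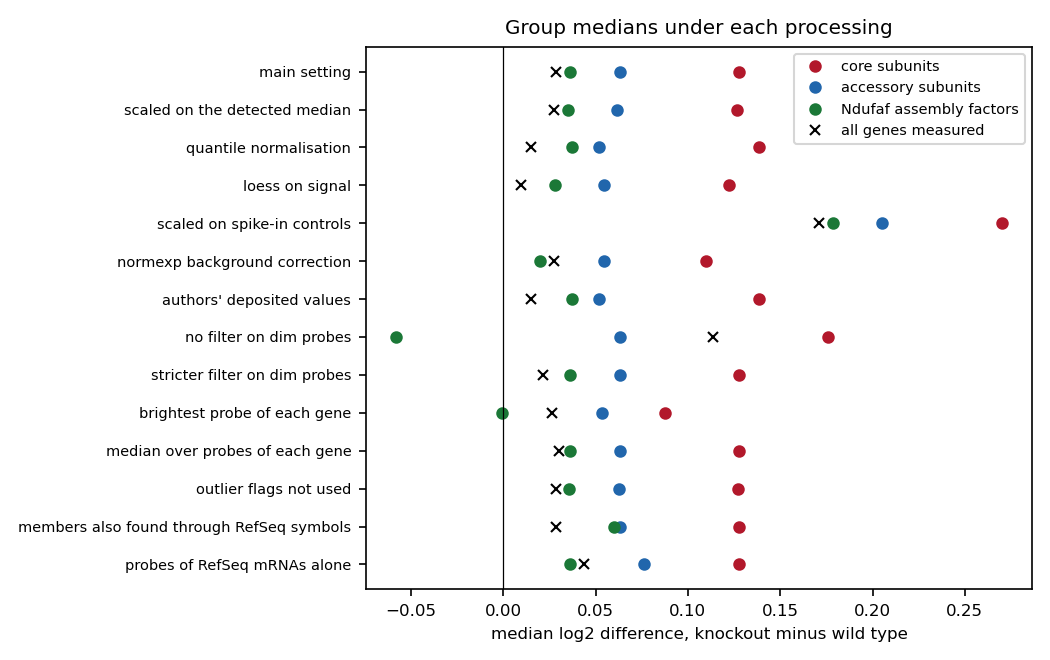
Median log2 difference, knockout minus wild type (horizontal axis), of the core, accessory and Ndufaf genes (points) and of all genes measured (crosses) under the main setting and 13 alternatives (vertical axis). Scaling on spike-in controls moves all 4 medians up together, all genes to 0.17, and only without a filter on dim probes does the Ndufaf median reach -0.06.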

How the data were processed

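The deposited scanner table of each array gives linear spot intensity, written by Feature Extraction 10.7.1.1 for design 074809 per the file headers (9.5.1.1 per the submitters' processing notes). Per the file headers the processed intensity was background-subtracted within each array and not normalised between arrays. The deposited series-wide table of intensity had sorted columns equal within 0.0243% (above 100) and a median of 57.95 in both, and its differences between arrays followed the scanner values with r = 0.997 across probes, so scale and direction are known and genes were not centred.

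Control and outlier spots were left out (88 and 84 outlier spots). The log2 intensity was averaged per probe name, and each array's 75th percentile (signals of 808 and 790) was subtracted. A gene is the mean of its probes well above background on both arrays, for which the lowest signals were 12.9 and 15.8. With 1 array per genotype there was no test, and genes are counted by size. The steps were tested on simulated data. RefSeq symbols (GRCm38.p6 table) were found by accession for 53 of 70 member probes, and all 53 were the same symbol. Sequences and positions (mm9) come from the deposited scanner tables.

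Signals are given for the core subunits described, assembly factors, the 5 highest and 5 lowest members, extremes of each list and members whose probes lie at least 0.5 apart. Ndufs4, Ndufa2, Ndufs6, Ndufa7, Ndufab1, Ndufa10, Ndufa5, Ndufs5 and Ndufaf8 were added after their values were seen. The members and lists were chosen with earlier results of these data known. Alternatives were scaling on detected probes or spike-in controls (7 probes), quantile normalisation, loess (span 0.3), normexp (offset 50, limma 3.58.1 in R 4.3.3), the authors' values, no filter on dim probes, a stricter one (4 times the lowest signal well above background), the brightest or median probe, outlier spots kept, RefSeq symbols, and RefSeq mRNA probes alone. Of the core subunits, 1 is counted in the group values, and its own values are not reported here.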

Additional observations from a re-analysis of the deposited data

How the results depend on the processing

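No paired analysis was possible because each genotype has 1 array, and for the same reason no replicate could be left out. The number of members at least 1.5-fold apart was 0, but 1 on the spike-in scaling (Ndufa9 at 0.61) and 1 without a filter on dim probes (Ndufs5 at -0.89, from its probe below background on the knockout array). The group medians and the number of members above 0 moved by less than the spread between probes of a gene, or by less than 1.5 times, under all 13 alternatives, with 32 to 39 members above 0. Among single genes, Ndufa3, Ndufa13, Ndufaf5 and Ndufaf6 moved by more than that spread with the choice of probes, and Ndufa4l2 (0.46), Ndufaf5 (-0.15), Ndufb2 (0.26) and Ndufs5 without a filter on dim probes. Smaller shifts with the choice of probes turned the sign of Ndufa10, Ndufab1 and Ndufs3, among others. Over all genes, those at least 1.5-fold higher and lower, 1796 and 1190 as reported, were 719 and 484 with normexp, 5363 and 3281 without a filter, 926 and 708 with the stricter filter and, with RefSeq probes alone, 1198 and 430. The causes were not tested. The 7 spike-in probes themselves ranged from -0.20 to -0.03 before scaling. Differences within 0.20 are inside the scanner error, and the single array per pool limits the precision of every value.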
